A study of Mus musculus with 2 samples.

Results

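Cholesterol synthesis and its control by SREBP are described here through 8 genes, Hmgcs1, Idi1, Msmo1, Cyp51, Sqle, Fdps, Fdft1 and Insig1, measured in mouse lymphocytes that had been polarized in culture. The 8 genes were taken as a list of symbols, and every probe annotated to one of them alone was used, which gave 14 probes of 26926 probes with 1 gene symbol and 8 genes of 17501 named genes. One two-colour array compared RNA of Th17-polarized lymphocytes with RNA of Th0-polarized lymphocytes, and a second compared RNA of Th1-polarized lymphocytes with RNA of Th0-polarized lymphocytes. They are called the Th17 array and the Th1 array below. The labels give a TRP-1 mouse as the source of all 3 populations without saying whether it was the same animal, and TRP-1 is a pigment cell protein known as a target of T cells in melanoma, the disease named in the series title. On both arrays the polarized population carried the dye Cy5 and the Th0 population Cy3, with no dye swap, and the polarizing agents, the time in culture and the age of the mouse were not stated in the labels. There was 1 array per comparison, so no value had a replicate sample, no value was tested, and this number limits the precision.

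Animal cells build cholesterol from acetyl-CoA through mevalonate, isoprenoid phosphates, squalene and lanosterol. When sterol in the endoplasmic reticulum is low, the escort protein Scap carries the SREBP transcription factors to the Golgi, where they are cut and released to switch on the genes of this pathway. When sterol is plentiful, Insig proteins hold Scap back. Activated lymphocytes are known to raise sterol synthesis as they grow and divide, since new membrane needs cholesterol.

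Each array gave a log2 ratio of its 2 channels, and the table did not state which channel was the numerator. The titles and dyes name the polarized population over Th0, yet Il17a and Il22, the cytokine genes of Th17 cells, lay at −5.37 and −5.79 on the Th17 array, and Ifng, the cytokine gene of Th1 cells, lay at −2.02 on the Th1 array. Other genes of the Th17 lineage were also negative on the Th17 array: Ccl20 at −6.48, Il21 at −4.17, Il17f at −2.38 and Il23r at −1.88. On the Th1 array the Th1 genes Tbx21 and Il12rb2 lay at −1.25 and −0.59. Genes not of the Th1 lineage were as negative there, Il22 at −2.53, Gata3 at −1.49, Il21 at −1.23 and Il23r at −1.02. Of 11 measured lineage genes, 3 were above 0 on that array, Foxp3 at 0.54, Il17a at 0.29 and Il17f at 0.06. The Th1 genes were thus not set apart on it. Read as titled, the Th17 genes on the Th17 array would be lower in cells of their own lineage than in Th0 cells, Il17a by 41.4-fold. The same holds for the Th1 genes on the Th1 array. Both sets would be higher in their own lineage only if the ratio runs the other way. The signs below are as deposited. A positive value stands for more RNA in the polarized cells than in Th0 cells if the titles hold, and for less if the ratio runs the other way. A value was called when it was at least 2-fold from 0 on this scale, an absolute log2 ratio of at least 1. Beside it stands the share of named genes that lay below it, which does not change when a constant is added to an array. The spread between probes of a gene was the only repeat measurement. Pooled over 5871 genes with 2 to 19 probes, its SD was 0.50 on the Th17 array and 0.52 on the Th1 array.

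Promoter sequence was matched for 5 of the 8 genes (Hmgcs1, Idi1, Msmo1, Cyp51 and Insig1) in RefSeq's annotation of mouse build GRCm38.p6. Of these, 3 are shown, Hmgcs1 with the most distant value, Cyp51 as a second gene past 2-fold and Insig1 as the feedback gene that did not reach 2-fold. Each sequence holds the 250 bases before the annotated gene start, 5′ to 3′ on the gene's strand, at chr13:119690101-119690350 (plus strand) for Hmgcs1, chr5:4104698-4104947 (minus strand) for Cyp51 and chr5:28071162-28071411 (plus strand) for Insig1. Capitals mark matches, on either strand, to TCACNCCAC, the core of the classical sterol regulatory element bound by SREBP, to its looser form TCACNNCA, to the CCAAT box (CCAAT), to the GC box (GGGCGG) and to the E-box (CACGTG).
Hmgcs1: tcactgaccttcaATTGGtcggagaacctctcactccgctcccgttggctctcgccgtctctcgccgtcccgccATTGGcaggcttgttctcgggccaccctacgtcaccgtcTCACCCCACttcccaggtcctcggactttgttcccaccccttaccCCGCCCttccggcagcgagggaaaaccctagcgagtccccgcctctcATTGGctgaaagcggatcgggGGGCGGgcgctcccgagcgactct
Cyp51: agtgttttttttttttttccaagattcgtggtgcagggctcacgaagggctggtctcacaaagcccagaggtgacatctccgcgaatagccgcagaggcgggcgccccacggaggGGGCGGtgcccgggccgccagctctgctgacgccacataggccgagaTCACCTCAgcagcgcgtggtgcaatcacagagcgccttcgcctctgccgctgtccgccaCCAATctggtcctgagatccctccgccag
Insig1: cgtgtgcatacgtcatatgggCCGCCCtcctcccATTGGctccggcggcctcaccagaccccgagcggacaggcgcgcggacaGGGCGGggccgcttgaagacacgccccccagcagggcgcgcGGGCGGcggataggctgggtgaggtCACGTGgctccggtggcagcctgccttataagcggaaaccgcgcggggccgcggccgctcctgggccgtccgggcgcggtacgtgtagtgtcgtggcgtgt

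Hmgcs1 held the strict core TCACCCCAC, with its first base 137 bases before the gene start, and 1.05% of all 32851 annotated promoter windows of the same length held a match to TCACNCCAC. Any match to TCACNCCAC is also a match to TCACNNCA, which was found in 11.4% of windows. Cyp51 held that looser form as TCACCTCA at 88 bases before the start, and Msmo1 held it as TCACTCCA at 177 bases and as TCACTGCA at 92 bases, the second match overlapping a CCAAT box. In the windows of Idi1 and Insig1 these letters were not found. CCAAT was found in all 5 windows, against 33.8% of all windows, with 3 matches in Hmgcs1, 3 in Msmo1, 2 in Idi1 and 1 in each of the other two. GGGCGG was also found in all 5, against 32.7% of all windows, and CACGTG in Insig1 alone of the 5, at 101 bases, against 6.02% of all windows. A match describes these letters and was not tied to binding.

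The first steps of the pathway make mevalonate and the isoprenoid building blocks. Hmgcs1, the cytosolic synthase that makes HMG-CoA, lay at 2.64 on the Th17 array (6.25-fold) and at 1.61 on the Th1 array (3.06-fold). It was the highest of the 8 genes on both arrays, above 99.7% of named genes on the Th17 array and above 99.1% on the Th1 array. As titled, that is 6.25-fold more Hmgcs1 RNA in Th17-polarized than in Th0 cells, and if the ratio runs the other way, 6.25-fold less. Idi1, the isomerase that interconverts the isoprenoid building blocks, lay at 1.56 (2.95-fold) on the Th17 array and at 1.33 (2.51-fold) on the Th1 array, above 98.9% of named genes on the Th17 array and 98.4% on the Th1 array. Both values were past 2-fold. Its close relative Idi2, with 3 probes, lay at −0.23 on the Th17 array and at −0.43 on the Th1 array, so as deposited the means of these related genes were not on the same side. Centring each array on its most repeated value (−0.43 on the Th17 array, −0.85 on the Th1 array) turns the sign of Idi2 on both. The search for weak channels described below also marked a probe of Idi2 on the Th1 array.

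Fdps makes farnesyl diphosphate, where the path to sterols parts from protein prenylation. Its 3 probes held 1.48, 0.79 and 0.63 on the Th17 array, and in the same order 0.98, −0.08 and 0.24 on the Th1 array. The gene mean was 0.97 ± 0.45 on the Th17 array and 0.38 ± 0.54 on the Th1 array (SD over 3 probes). On each array 1 probe stood apart on the positive side, and the spread between probes on the Th1 array was larger than the mean itself.

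The enzymes that follow turn farnesyl diphosphate into squalene and close and trim the sterol rings. Fdft1, squalene synthase, was the exception among the 8 genes. Its 1 probe lay at −0.13 on the Th17 array and at −0.19 on the Th1 array, above 40.0% of named genes on the Th17 array and 39.7% on the Th1 array, near the middle of all genes on both. Sqle, squalene epoxidase, had 2 probes at 0.95 and 0.23 on the Th17 array and at 0.63 and 0.05 on the Th1 array. Its means of 0.59 ± 0.51 on the Th17 array and 0.34 ± 0.41 on the Th1 array (SD over 2 probes) were not past 2-fold.

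Cyp51 removes a methyl group from lanosterol, and its 2 probes were the closest together of any member with several probes. They held 1.40 and 1.34 on the Th17 array, a mean of 1.37 ± 0.05 (SD over 2 probes, 2.59-fold). On the Th1 array they held 1.06 and 0.84, a mean of 0.95 ± 0.15 (1.93-fold), just short of 2-fold. Msmo1, the methylsterol oxidase of the next demethylations, lay at 1.78 (3.43-fold) on the Th17 array and at 1.09 (2.13-fold) on the Th1 array. On the Th17 array Cyp51 was above 98.5% of named genes and Msmo1 above 99.2%, while Sqle, upstream of both, was above 92.2%.

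Insig1, a target of SREBP and the protein that shuts the system down, had 3 probes at 0.97, 0.35 and 0.13 on the Th17 array and at 0.53, 0.22 and −0.13 on the Th1 array. A mean of 0.49 ± 0.44 placed it above 89.9% of named genes on the Th17 array, and a mean of 0.21 ± 0.33 above 74.1% on the Th1 array (SD over 3 probes). On the Th1 array its probes lay on both sides of 0.

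**Figure D1:**
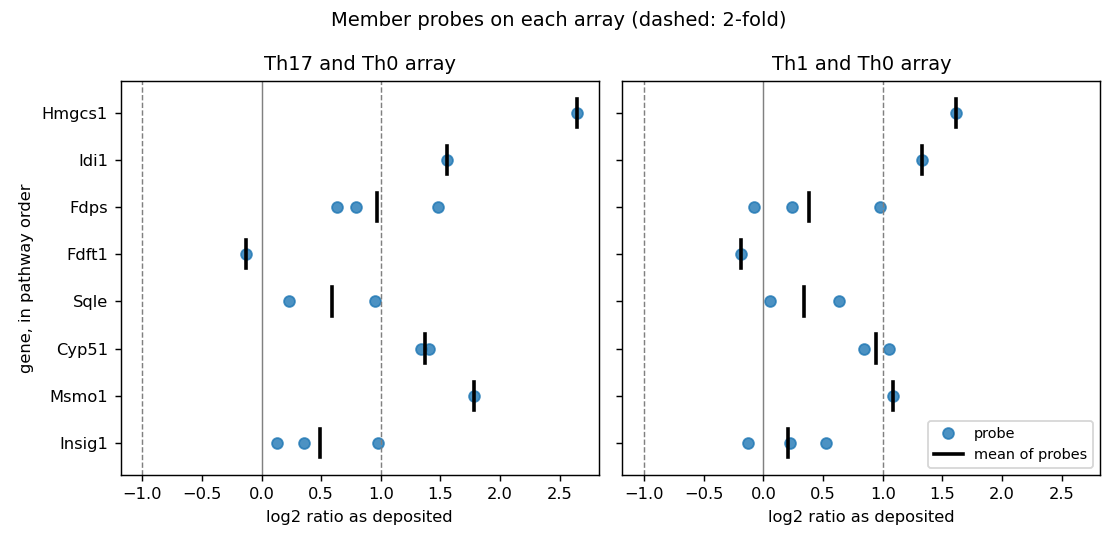
Log2 ratio as deposited (horizontal axis) of each of the 14 probes (points) of the 8 genes, with the mean of the probes of a gene (bar), on the Th17 array (left) and the Th1 array (right). Dashed lines mark 2-fold, and Hmgcs1 lies farthest to the right on both arrays, at 2.64 on the Th17 array and 1.61 on the Th1 array, while Fdft1 lies left of 0 on both.

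Across the 8 genes, the median was 1.17 on the Th17 array, with values between −0.13 and 2.64, against a median of −0.03 over all named genes, and 7 of the 8 were above 0, as were 46.3% of named genes. On that array 4 of the 8 (Hmgcs1, Msmo1, Idi1 and Cyp51) were at least 2-fold on the positive side, where 2.9% of named genes lay, and 0 of 8 were at least 2-fold on the negative side, where 5.52% lay. On the Th1 array the median was 0.66, with values between −0.19 and 1.61, against −0.08 over all named genes, and 7 of the 8 were above 0, as were 42.6% of named genes. There 3 of the 8 (Hmgcs1, Idi1 and Msmo1) were at least 2-fold positive, against 3.27% of named genes, and 0 were at least 2-fold negative, against 6.92%. The genes had been listed with earlier results of these data known, so these counts are a description.

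The members were far from uniform. From Hmgcs1 to Fdft1 the log2 ratios spanned 2.77 on the Th17 array and 1.80 on the Th1 array, and both spans were larger than the pooled SD between probes. In descending order the Th17 array gave Hmgcs1, Msmo1, Idi1, Cyp51, Fdps, Sqle, Insig1 and Fdft1. The Th1 array gave the same order except that Idi1 stood above Msmo1. Of the 7 pairs of neighbours in each order, the gap was larger than the pooled SD between probes for 2 on the Th17 array (Hmgcs1 over Msmo1 by 0.87, Insig1 over Fdft1 by 0.62) and for 1 on the Th1 array (Cyp51 over Fdps by 0.57). The other neighbours lay within that spread. That SD is the spread of single probes, whereas a gap carries the spread of both genes, so the comparison is only a rough guide. Probes of Hmgcs1, Idi1, Msmo1 and Fdft1 were single, so these values rest on 1 probe each. The search for ratios that would come from a weaker channel of 5 units or fewer found 0 of the 14 probes on either array. Of all probes it found 2.18% on the Th17 array and 2.97% on the Th1 array. At such low shares, 0 of 14 does not set the members apart.

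**Figure D2:**
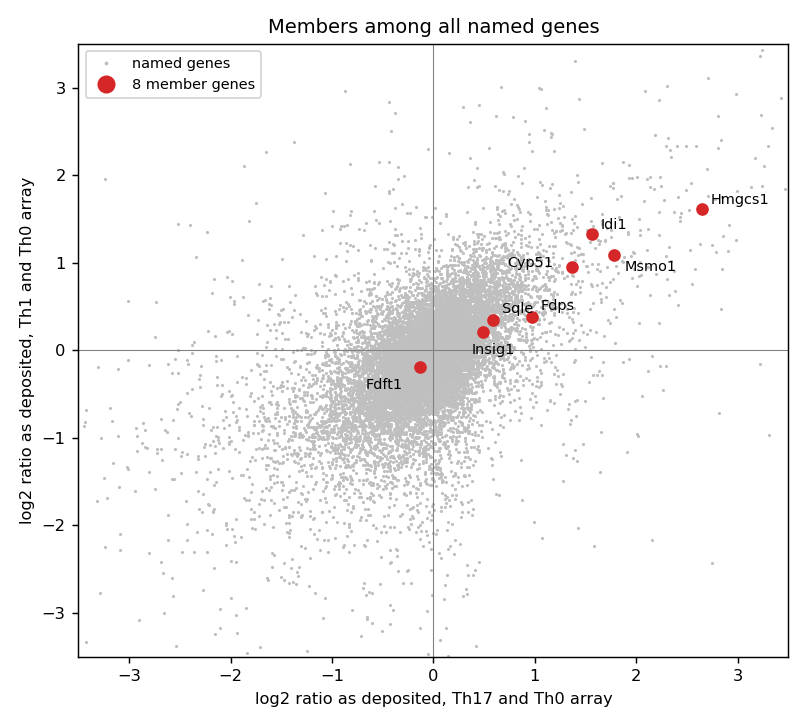
Each named gene (grey points) and the 8 member genes (red) by log2 ratio as deposited on the Th17 array (horizontal) and the Th1 array (vertical); 108 genes beyond 3.5 on an axis are outside the plot. Idi1, Msmo1, Hmgcs1 and Cyp51 lie at the upper right edge of the cloud and Fdft1 within its middle. The arrays share Th0 as their comparison.

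Th17 was set against Th1 as the log2 ratio of the Th17 array minus that of the Th1 array, which assumes that both arrays run the same way and held the same Th0 RNA. All 8 genes and all 14 probes had a positive difference as deposited, where 53.9% of named genes and 52.7% of probes with 1 gene did. Centring each array on its most repeated value left 4 of the 8 genes above 0, Cyp51 by only 0.0006, against 16.8% of named genes. With that centre the median of the 8 turned to −0.07, against −0.38 over all named genes. Centring on the array median left 7 of the 8 above 0, against 47.0%. The largest difference was that of Hmgcs1 at 1.03 (2.04-fold), the 1 member past 2-fold, where 4.53% of named genes were at least 2-fold positive, 3.61% at least 2-fold negative and 8.14% either. Msmo1 differed by 0.69, Fdps by 0.59 and Cyp51 by 0.42. Insig1 at 0.28, Sqle at 0.25, Idi1 at 0.23 and Fdft1 at 0.06 were closer to 0. The pooled SD of this difference between probes of a gene was 0.52, so only the differences of Hmgcs1, Msmo1 and Fdps were larger than it. The median of the 8 was 0.35, against 0.04 over all named genes. As titled, that of Hmgcs1 is 2.04-fold more RNA in Th17-polarized than in Th1-polarized cells, and 2.04-fold less if both ratios run the other way.

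The zero of each array bears on these signs. The most repeated value, which is what a probe with equal small signals in both channels would hold, was −0.43 on the Th17 array and −0.85 on the Th1 array. Widely expressed control genes had a median of −0.01 on the Th17 array and 0.25 on the Th1 array. Centring on the most repeated value moved the median of all named genes to 0.39 on the Th17 array, to 0.77 on the Th1 array and to −0.38 in the difference. With that centre all 8 members were above 0 on both arrays, Fdft1 included, as were 81.1% of named genes on the Th17 array and 90.4% on the Th1 array. At least 2-fold positive were then 6 of the 8 on the Th17 array, against 8.17% of named genes, and 7 of the 8 on the Th1 array, against 29.8%. With control genes as centre, 6 of 8 were above 0 on the Th1 array, Insig1 joining Fdft1 below 0, against 22.8% of named genes. That centre took Msmo1 to 0.83 on the Th1 array, which left 2 of the 8 at least 2-fold positive there, against 1.81% of named genes, and a median of 0.41. Centring on the array median brought Cyp51 to 1.06 on the Th1 array and the count there to 4 of 8, against 4.35% of named genes. Relative to the median of all named genes, which a constant added to an array cannot change, the median of the 8 members stood 1.20 higher on the Th17 array, 0.74 higher on the Th1 array and 0.31 higher in the difference.

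**Figure D3:**
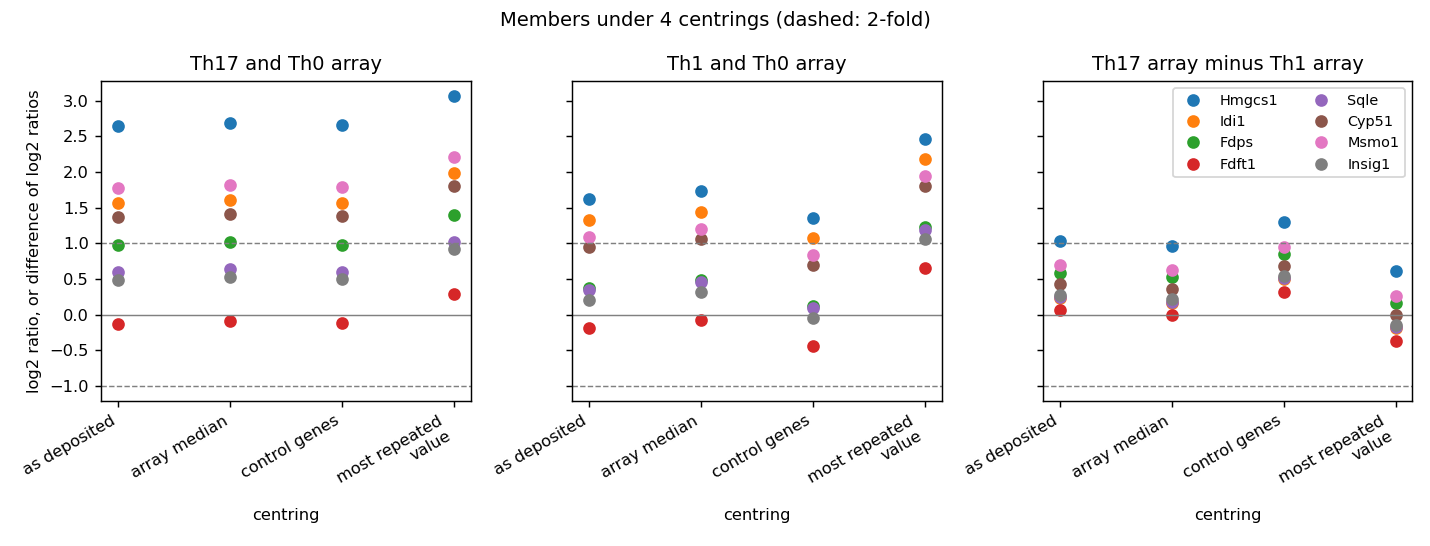
Values of the 8 genes (coloured points) on the Th17 array (left), the Th1 array (middle) and their difference (right), on a log2 scale, under 4 choices of the zero of each array; dashed lines mark 2-fold. The order of the genes is the same under each choice, and the difference straddles 0 when arrays are centred on their most repeated value.

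Enzymes of the same pathway outside the 8 genes were listed too. Of 15 other listed synthesis genes, 12 were measured, and 0 of 12 were 2-fold apart on either array, where 8.42% of named genes were on the Th17 array and 10.2% on the Th1 array. Their median was 0.28 on the Th17 array, with 11 of 12 above 0, against 46.3% of named genes. On the Th1 array it was 0.24, with 8 of 12 above 0, against 42.6% of named genes. With the arrays centred on control genes, the median on the Th1 array turned to −0.01, and with the most repeated value as centre 2 of 12 were past 2-fold on the Th17 array, against 10.9% of named genes, and 7 of 12 on the Th1 array, against 31.5%. Their ranges overlapped with that of the members: Hsd17b7, a sterol ketoreductase, lay at 0.70 on the Th17 array, and Pmvk, phosphomevalonate kinase, at 0.75 on the Th1 array, both above Sqle, Insig1 and Fdft1. Both were named after their values were seen. Sc5d, a late desaturase of the sterol ring, lay at 0.26 ± 0.89 on the Th17 array and at −0.27 ± 0.67 on the Th1 array (SD over 2 probes).

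Among the proteins that control SREBP, other than Insig1, 7 genes were measured and 0 of 7 were past 2-fold on either array. Of named genes, 8.42% were past 2-fold on the Th17 array and 10.2% on the Th1 array. These counts depend on the zero. With Insig1 included and the most repeated value as centre, 2 of 8 were past 2-fold on the Th17 array, against 10.9% of named genes. On the Th1 array 3 of 8 then were, against 31.5%. Srebf2, the factor that chiefly drives cholesterol genes, lay at 0.81 on the Th17 array and at 0.25 on the Th1 array. Scap lay at 0.78 on the Th17 array and 0.37 on the Th1 array. Srebf1, whose product chiefly drives fatty acid genes, lay at 0.32 on the Th17 array and 0.12 on the Th1 array, and Insig2 at −0.01 on the Th17 array and 0.10 on the Th1 array. The lowest of the group was Mbtps2, a protease that cuts SREBP, at −0.13 on the Th17 array and −0.32 on the Th1 array.

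Genes of sterol uptake and transport had a median of −0.18 on the Th17 array and 0.22 on the Th1 array over 9 measured genes. On either array 0 of 9 were past 2-fold as deposited, where 8.42% of named genes were on the Th17 array and 10.2% on the Th1 array. With the most repeated value as centre, 1 of 9 was past 2-fold on the Th17 array, against 10.9% of named genes. On the Th1 array 6 of 9 then were, against 31.5%. Stard4, a sterol carrier and known SREBP target, was the highest of the 9, at 0.83 on the Th17 array and 0.78 on the Th1 array. Gramd1a, a sterol transporter at membrane contacts, was the lowest, at −0.44 ± 0.66 on the Th17 array and −0.23 ± 0.17 on the Th1 array (SD over 2 probes). Lipa, the lysosomal lipase that frees cholesterol from its esters, differed by −1.07 between the arrays, at −0.41 on the Th17 array and 0.66 on the Th1 array.

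Fatty acid synthesis is the other arm of the SREBP programme. Of its 15 genes, 1 was at least 2-fold positive on the Th17 array, against 2.9% of named genes. This was Me1, the malic enzyme that supplies NADPH, at 1.74, and its value on the Th1 array was 0.31. On the Th1 array 4 of 15 were at least 2-fold positive, against 3.27% of named genes. With control genes as centre this became 1 of 15 (Scd2), against 1.81%. With the most repeated value as centre it became 11 of 15, against 29.8%. The 4 were the desaturase genes Scd2 at 1.49, Scd1 at 1.19 and Fads1 at 1.12, and Tmem97, a sterol-responsive membrane protein rather than a fatty acid enzyme, at 1.04. On the Th17 array Scd2 lay at 0.63, Scd1 at 0.35, Fads1 at −0.27 and Tmem97 at 0.82. Scd1 and Scd2 are closely related and their probes may share signal. The median of the 15 was 0.40 on the Th17 array and 0.59 on the Th1 array, and the median difference was −0.21, against 0.35 for the 8 members. With the arrays centred on control genes, the median difference of the 15 turned to 0.05. Acsl3 and Gpam, an acyl-CoA synthetase and an acyltransferase, were the lowest of this group, Acsl3 at −0.45 on the Th17 array and Gpam at −0.49 on the Th1 array.

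Genes by which cells sense, export or store excess sterol, many of them targets of the receptor LXR, had a median of −0.15 on the Th17 array and 0.06 on the Th1 array over 10 measured genes. Ch25h, whose product makes an oxysterol that blocks SREBP processing, lay at −3.19 on the Th17 array (9.12-fold) and at −0.66 on the Th1 array. On the Th17 array it lay on the side opposite to Hmgcs1 under each of the 4 centrings, while its sign on the Th1 array turned with the most repeated value as centre. Abca1, a cholesterol exporter, lay at −1.02 on the Th17 array and at 0.70 on the Th1 array, and Sult2b1, a sterol sulfotransferase, at 1.08 ± 1.60 on the Th17 array and 0.42 ± 0.55 on the Th1 array (SD over 2 probes). On the Th17 array the probes of Sult2b1 held 2.21 and −0.05, so its call rests on 1 probe. Apoe, a lipid carrier made by macrophages in quantity, lay at 0.38 on the Th17 array and at 3.54 on the Th1 array. Of 12 measured genes that use isoprenoids outside sterol synthesis, 1 was past 2-fold, against 8.42% of named genes on the Th17 array and 10.2% on the Th1 array. It was Nus1, a subunit of the dolichol-making enzyme, at 1.01 on the Th17 array and 1.10 on the Th1 array. With the most repeated value as centre, 2 of 12 were past 2-fold on the Th17 array, against 10.9% of named genes. On the Th1 array 7 of 12 then were, against 31.5%, and 0 of 12 with control genes as centre, against 13.6%. Fntb, a farnesyltransferase subunit, was the lowest of the 12, at −0.34 on the Th17 array and −0.10 on the Th1 array.

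**Figure D4:**
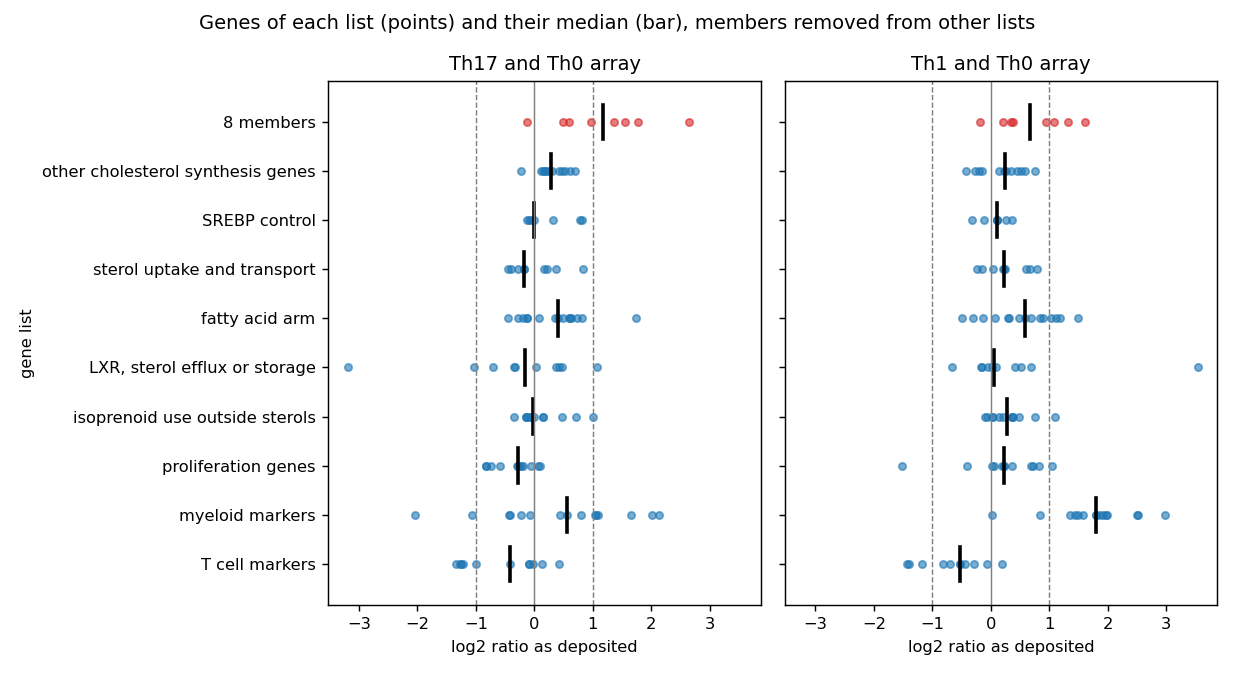
Log2 ratio as deposited of the genes of each list (points) and their median (bar) on the Th17 array (left) and the Th1 array (right), with the 8 members in red and removed from the other lists. The members reach 2.64 on the Th17 array and 1.61 on the Th1 array, while the 12 other cholesterol synthesis genes all lie within 2-fold of 0.

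Cells other than T cells could be present, and a ratio gives no level from which their presence could be read. Of 15 measured myeloid markers, 6 were at least 2-fold positive and 2 negative on the Th17 array, against 2.9% and 5.52% of named genes. Their median there was 0.56. On the Th1 array 13 were at least 2-fold positive and 0 negative (median 1.80), against 3.27% and 6.92%. Above 0 on the Th17 array were 9 of 15 myeloid markers and 7 of the 8 members, against 46.3% of named genes. On the Th1 array 15 of 15 myeloid markers and 7 of the 8 members were above 0, against 42.6%. In the difference, 8 of 15 myeloid markers were at least 2-fold negative (median −1.43), against 3.61% of named genes. The members lay between 0.06 and 1.03 in the difference. Of 11 T cell markers, 5 were at least 2-fold negative on the Th17 array, against 5.52% of named genes, and 3 on the Th1 array, against 6.92%. Their median was −0.41 on the Th17 array and −0.53 on the Th1 array. B cell markers had a median of 0.15 on the Th17 array and −0.08 on the Th1 array over 7 genes, and red cell markers 0.72 on the Th17 array and 0.06 on the Th1 array over 4. Proliferation genes had a median of −0.27 on the Th17 array and 0.23 on the Th1 array over 12 measured genes. The part of these cell types and of proliferation in the members' values was not tested, and in RNA of whole cultures fewer cells of a type and less RNA per cell cannot be told apart.

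By the distance of a gene's pair of array values from the members' medians, the 5 named genes nearest to them were Dock8, Tas2r120, Fhl2, Ptcra and Sulf2, at distances between 0.023 and 0.045 log2 units. This likeness covers 2 arrays only.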

How the data were processed

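The values of 36547 probes per array were deposited by the authors and were taken as log2 ratios, a reading that rests on the values themselves. How the arrays were scanned, background-corrected and normalised is not given in the sources used here. Per the labels' protocols, labelling was by amino allyl amplification of 500 ng of total RNA. Probes were named from the platform's annotation, which can be old, and checked by gene number against a GRCm38.p6 gene list. Of the probes, 26926 had 1 symbol, 203 several and 9418 none. Gene numbers matched for 26774 of the probes with 1 symbol and 0 symbols changed. Probes of a gene were averaged. Weaker channels of 5 units or fewer were sought as a ratio to the most repeated value that equals a ratio of whole numbers within rounding. Python 3.11.15 with pandas 2.3.3 and numpy 2.4.6 was used, and the averaging and the search were tested on simulated data. No p-value was computed. Members and lists were chosen with earlier results of these data known. Named were the 8 members, a fixed set of SREBP genes, and in each pathway list the genes past 2-fold on an array or in the difference and the highest and lowest on each array. Alternatives were 3 other centrings, the median probe, the probe closest to 0, probes with several symbols, a filter on weak channels, a 1.5-fold threshold and a turned sign.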

Additional observations from a re-analysis of the deposited data

Results flagged for a closer look

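Of the 37 genes that the naming rule picked from the members and the pathway and proliferation lists, 10 lay on opposite sides of 0 on the arrays as deposited, and in each case the difference was not tested. The rule itself admitted genes for a large difference between the arrays. The share of all named genes on opposite sides was not counted, so the number 10 only describes the picked genes. These signs also depend on the zero chosen for each array. In the pathway lists, the Th17 array minus Th1 array difference was −1.72 for Abca1, −1.39 for Fads1, −1.07 for Lipa, −0.93 for Acsl3, 0.53 for Sc5d and −0.11 for Insig2. Among proliferation genes it was −1.31 for Ccna2, −1.10 for Top2a, −1.10 for Bub1 and −0.85 for Cdk1. The value on the Th17 array was the positive one for Sc5d and the negative one for the others. The difference of Insig2 was smaller than the pooled SD of 0.52 between probes. Probes of Sc5d spread with an SD of 0.89 on the Th17 array and 0.67 on the Th1 array. A probe of Cdk1 was flagged as weak on the Th1 array. None of the 8 members was among the 10 genes as deposited.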

How the results depend on the processing

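No paired analysis was possible because each group has 1 array. Turning the sign of both arrays turned the median of the 8 members to −1.17 on the Th17 array, −0.66 on the Th1 array and −0.35 in the difference. It turned Hmgcs1 to −2.64, −1.61 and −1.03, and Idi1 to −1.56 and −1.33, Msmo1 to −1.78 and −1.09 and Cyp51 to −1.37 on the arrays where they had been past 2-fold. Centring on the most repeated value moved the members' median on the Th1 array to 1.51 and the members past 2-fold there to 7, against 3 as deposited, while the share of all named genes at least 2-fold positive there went to 29.8%, against 3.27%. It left 0 members past 2-fold in the difference, as did centring on the array median, against 1 as deposited and 3 at a 1.5-fold threshold. Of 65 measured pathway genes that are no members, 5 were past 2-fold on the Th17 array (7.69%, against 8.42% of named genes), 6 on the Th1 array (9.23%, against 10.2%) and 6 in the difference (9.23%, against 8.14%). Centred on the most repeated value, these counts were 15 (23.1%, against 10.9% of named genes), 37 (56.9%, against 31.5%) and 11 (16.9%, against 11.6%). At 1.5-fold they were 17 (26.2%, against 20.9%), 18 (27.7%, against 26.0%) and 15 (23.1%, against 20.5%). For the probe closest to 0 the count on the Th17 array was 3 (4.62%, against 7.23% of named genes). With control genes as centre the count on the Th1 array was 2 (3.08%, against 13.6%). The median of these 65 genes on the Th1 array was 1.09 with the most repeated value as centre, against 0.24 as deposited. No member probe was flagged as weak, so leaving out weak channels could not change the members' values. The median probe can differ from the mean only for Fdps and Insig1, the members with 3 probes. It gave members' medians of 1.08 on the Th17 array, 0.65 on the Th1 array and 0.34 in the difference. Probes with several symbols held 0 listed genes, so that alternative gave no value.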
